A study of Mus musculus with 2 samples.

Results

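The expression of 7 mouse genes of cholesterol handling was described in leukocytes of adipose tissue: Apoe and Pltp, which act on lipoproteins, the efflux transporters Abca1 and Abcg1, and Srebf2, Insig1 and Sqle of the synthesis pathway. They were picked by symbol, and all 7 were found once each among the 28692 genes of the files. RNA was sequenced in 2 libraries of single CD45+ cells that intravenous labelling had identified as resident in the tissue. Both came from adult wild-type (wt) C57BL/6 mice, one library from mice on normal chow (control) and one from mice kept on a ketogenic diet (KD) for 1 week. The labels do not give the number of mice pooled in each library. With 1 library per diet, no difference between diets can be tested, and every comparison is one between 2 libraries.

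Macrophages take up cholesterol with lipoproteins and dying cells and cannot break it down. Cholesterol leaves them through ABCA1 and ABCG1, which load it onto apolipoproteins and lipoprotein particles, and through secreted apolipoprotein E, the product of Apoe. The phospholipid transfer protein PLTP reshapes the particles that accept it. Oxysterols made from excess cholesterol activate the liver X receptors (LXR), whose known targets include Abca1, Abcg1, Apoe, Pltp and Mylip. When cholesterol in the endoplasmic reticulum is low, the transcription factor SREBP2, the product of Srebf2, is released from its membrane and turns on the synthesis enzymes, among them Sqle (squalene epoxidase). INSIG1 holds SREBP2 back in the membrane, and its gene is itself a target of SREBP2.

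Promoter sequences are shown for Srebf2, for Insig1 and Hmgcs1, the latter 2 lower together in one dendritic cell cluster described further down, and for Abca1, which was higher there. They are the 250 bases before the RefSeq start (build GRCm38.p6), 5′ to 3′ on the gene's strand. Srebf2 lies at chr15:82147019-82147268 (plus strand), Insig1 at chr5:28071162-28071411 (plus strand), Hmgcs1 at chr13:119690101-119690350 (plus strand) and Abca1 at chr4:53159896-53160145 (minus strand). RefSeq windows were found for 5 of the 7 genes, not for Sqle and Abcg1. Capitals mark, on either strand, the sterol regulatory element (CACCCCAC or the wider form TCACNCCA), the CCAAT box (CCAAT) and the E-box (CACGTG).
Srebf2: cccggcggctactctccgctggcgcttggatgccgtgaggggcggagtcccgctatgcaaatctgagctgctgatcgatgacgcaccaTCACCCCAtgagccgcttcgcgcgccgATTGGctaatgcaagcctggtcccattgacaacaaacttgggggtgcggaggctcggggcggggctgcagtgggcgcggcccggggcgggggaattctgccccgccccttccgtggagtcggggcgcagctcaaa
Insig1: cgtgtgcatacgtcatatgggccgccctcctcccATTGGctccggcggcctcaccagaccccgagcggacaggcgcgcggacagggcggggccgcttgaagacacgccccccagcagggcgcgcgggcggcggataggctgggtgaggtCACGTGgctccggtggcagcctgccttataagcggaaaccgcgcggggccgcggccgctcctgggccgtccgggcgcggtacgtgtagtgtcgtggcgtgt
Hmgcs1: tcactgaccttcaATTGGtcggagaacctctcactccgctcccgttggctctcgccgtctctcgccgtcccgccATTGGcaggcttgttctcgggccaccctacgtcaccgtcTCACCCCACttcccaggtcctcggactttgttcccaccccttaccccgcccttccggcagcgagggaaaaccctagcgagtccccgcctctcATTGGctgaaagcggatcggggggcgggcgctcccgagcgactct
Abca1: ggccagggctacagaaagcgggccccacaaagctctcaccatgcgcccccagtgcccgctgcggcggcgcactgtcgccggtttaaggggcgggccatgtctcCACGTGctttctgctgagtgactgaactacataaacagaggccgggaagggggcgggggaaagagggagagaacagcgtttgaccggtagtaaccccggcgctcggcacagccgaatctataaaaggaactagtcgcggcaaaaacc

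Over the full windows, which add 50 bases after the start, the wider sterol element was found in Srebf2 and Apoe among the members, 162 and 213 bases before the start. It was present in 4.36% of all 32817 windows of that length, and the shorter core in 2.87%. A CCAAT box stood in the windows of Srebf2, Insig1 and Pltp and in 15 of the 16 synthesis genes with a window, against 37.4% of all windows. Hmgcs1 had a sterol element of both forms, overlapping, and 4 CCAAT boxes, of which 3 fall in the bases printed. An E-box was found in Abca1 and Insig1 (7.15% of all windows). No window of a member held the LXR direct repeat, a repeat of AGGTCA with 4 bases between, which 0.0152% of all windows hold. These matches describe letters in a window, not binding.

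Transcripts were counted by unique molecular identifiers (UMIs), 1 for each captured molecule, and summed over the cells of a cluster in a library and are given as CPM, UMIs per 1000000 UMIs of those cells. Brackets hold 95% intervals, exact Poisson for a level and exact conditional for a ratio; they include no error but that of counting. The chow library had 4458 clustered cells with a median over all its cells of 3469 UMIs, and the ketogenic library had 5559 with a median of 3461.5. The libraries shared 41 barcodes, and leaving those cells out moved no member by more than 0.04 on the log2 scale in the macrophage-like cluster or over all cells. Ptprc, which encodes CD45, was detected in 82.6% of chow and 82.3% of ketogenic cells. The authors' 13 clusters were named from marker lists. Clusters 0, 1, 2, 7 and 11 were ILC2-like (group 2 innate lymphoid), NK-like, T-like, Treg-like and γδ T-like. Clusters 5, 6 and 12 were cDC2-like, cDC1-like (conventional dendritic cells) and mature DC-like, 9 was B and plasma-like and 10 cycling. Cluster 3 was macrophage-like, with 9 of 10 macrophage and 5 of 6 monocyte markers raised. The cDC2-like cluster also had 5 of 6 plasmacytoid dendritic cell markers raised. Clusters 4 (led by Klra1 and Klra7, with Cd3d and Cd3e) and 8 (led by Retnla, Fcrls and Lyz1) stayed unnamed. Cluster 4 had 5 of 7 CD8 T cell markers raised, but its first genes encode receptors best known from NK cells. Apoe is the first leading gene of cluster 3 and Pltp the sixth of cluster 8, so the height of each there is part of how that cluster was formed.

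The 7 genes did not move as a group. Between the libraries, Abcg1 was higher on the ketogenic diet in 13 of 13 clusters and Abca1 in 11, while Pltp was lower in 12, Insig1 in 12, Srebf2 in 11 and Apoe in 10. Sqle was higher in 7 and lower in 6. These counts include clusters with few UMIs, and Abca1 reached 20 over both libraries in only 4, where each ratio interval spans 1. Among the 10361 genes with at least 100 UMIs, 9.01% were higher in 12 or more clusters and 16.5% in 11 or more. In the other direction, 4.72% were lower in 12 or more, 8.82% in 11 or more and 14.2% in 10 or more. A member had at least 20 UMIs over both libraries in 75 of its pairings with a cluster. Of these, 9 were at least 2-fold higher and 19 at least 2-fold lower, on a log2 ratio with 0.5 added to each count. With 10% of UMIs subtracted as free RNA the counts were 18 and 13. The 18 include Apoe in clusters 0, 6, 7, 10 and 12, where no chow UMIs were left and the ratio rests on the 0.5 added. The 13 include Apoe in clusters 4 and 11, where no ketogenic UMIs were left. No change of balance is read from these counts. Over all genes and clusters the shares were 5.82% of pairings higher and 3.97% lower. Under 8 other settings of scaling, pseudocount, free RNA and cell choice, 19 of these 28 calls stayed past 2-fold in the same direction, among them all 6 of Abcg1, and 9 did not in at least 1 setting. Of the 9 higher, 6 were Abcg1 and 2 were Abca1, and the 19 lower were mostly Apoe (7) and Pltp (7).

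**Figure D1:**
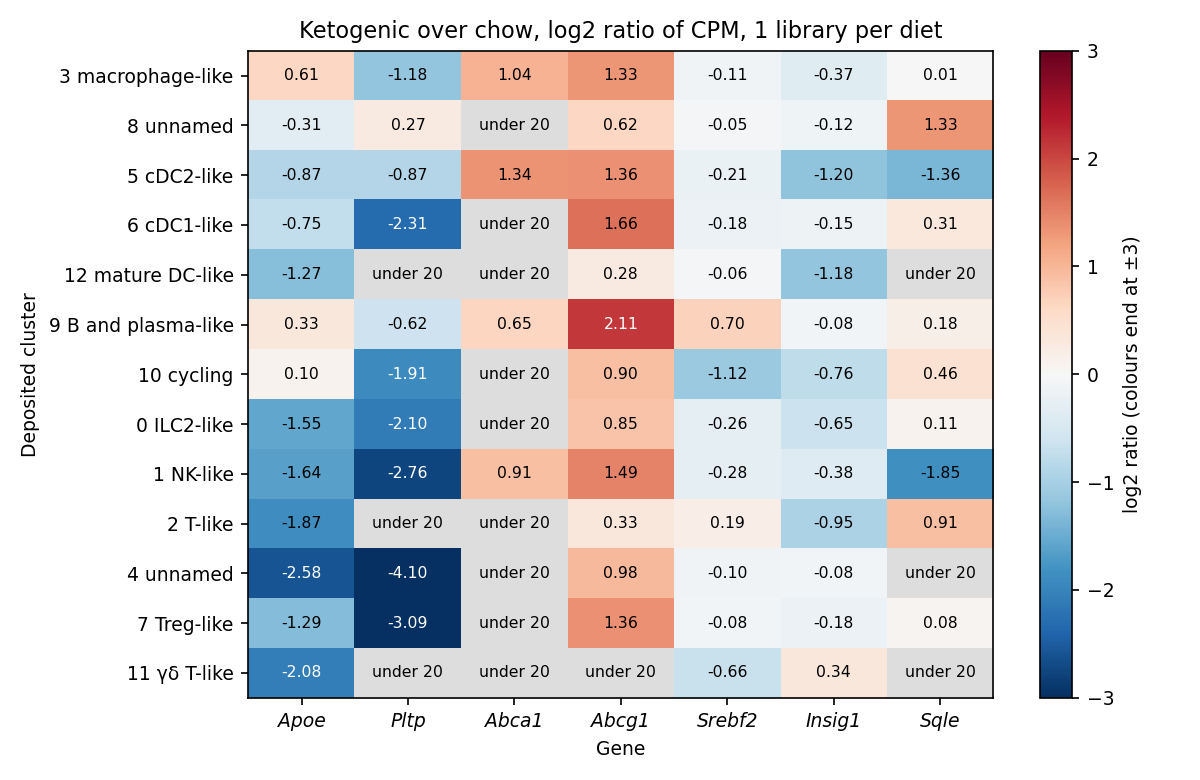
Log2 ratio of CPM, ketogenic over chow, for the 7 genes (columns) in the 13 clusters (rows), with 1 library per diet; grey cells had under 20 UMIs over both libraries. Abcg1 is above 0 in each of its 12 coloured cells, from 0.28 to 2.11, while Apoe is above 0 only in clusters 3, 9 and 10.

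Over all clustered cells, with each cluster weighted alike in both libraries, Abca1 and Abcg1 were the members past 2-fold. Abca1 stood at 2.61 CPM on chow and 5.35 on the ketogenic diet, a ratio of 2.05 [1.41–2.99]. Its log2 ratio of 1.03 was no longer past 2-fold relative to the median gene (0.96), without the richest cell (0.96), as a mean over cells (0.83) or without weights (0.59). Abcg1 stood at 14.3 and 30.7 CPM, a ratio of 2.15 [1.82–2.55]. Of 12678 genes with at least 20 UMIs, 2.64% were at least 2-fold higher and 2.45% at least 2-fold lower on this scale, with a median log2 ratio of 0.06. Pltp was lower, at 100 and 63.5 CPM (1.58-fold [1.43–1.74]), and Insig1 at 69.2 and 48.9 CPM (1.42-fold [1.29–1.56]). Srebf2 stood at 52 and 45.6 CPM, a log2 ratio of −0.19, and Sqle at 13.5 and 13.2 CPM, a ratio of 0.977 [0.798–1.2] that spans 1. Weighted this way Apoe was 1.32-fold [1.27–1.36] higher, at 417 and 550 CPM. Without weights Apoe was 3.74-fold [3.63–3.85] lower, at 802 and 215 CPM, since cluster 3 held 19.3% of chow and 2.61% of ketogenic cells. Without clusters 3 and 8 the weighted log2 ratio was −1.12.

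Apoe (ENSMUSG00000002985, chromosome 7 from 19696109 to 19699188, minus strand in GRCm38) came mainly from the macrophage-like cluster. Cluster 3 held 15559 of 17125 chow UMIs (90.9% [90.4–91.3]) and 4169 of 5551 ketogenic UMIs (75.1% [73.9–76.2]). In both libraries cluster 3 stood first and cluster 9 second, with intervals apart from each other and from the next cluster. On chow, 70 of the 168 Apoe UMIs of cluster 9 were in 1 cell. Without it the level was 141 CPM [114–171], and the interval overlaps that of cluster 4 with all its cells, 109 CPM [86.6–135]. With the richest cell left out of every cluster, cluster 9 was still second in both libraries. On chow its interval was then apart from that of the next, cluster 8, at 94.4 CPM [83.6–106]. With all cells, the chow levels were 3064, 238 and, in cluster 4, 109 CPM, and the ketogenic ones 4668, 299 and, in cluster 10, 84.7 CPM. The other 10 clusters lay between 62.2 and 108 CPM on chow, each within counting error of its neighbour. Cluster 8 was low in Apoe, at 105 CPM [94–118] and 83.4 CPM [51.6–127], while Lyz2, a lysozyme gene of myeloid cells, stood there at 11178 and 13540 CPM.

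Within cluster 3, Apoe was 1.52-fold [1.47–1.58] higher on the ketogenic diet, at 3064 CPM [3016–3112] in 859 chow cells and 4668 CPM [4527–4812] in 145 ketogenic cells. This is under the 2-fold mark that 5.43% of 8884 measured genes passed upwards there. The cells were uneven: per 10000 UMIs of a cell, the median was 17.6 Apoe UMIs on chow and 24.7 on the ketogenic diet, and the 90th percentiles were 86.1 and 148. The tenth of cells richest in Apoe held 39.2% and 41.3% of it. After each cell was thinned to 1000 UMIs, 68.5% of chow and 66.9% of ketogenic cells of cluster 3 had an Apoe UMI, against 7.14% and 1.98% of ILC2-like cells. Without thinning the shares were 90.1% and 80.7%, against 18.1% and 5.95%. The thinned shares were thus close and the unthinned share was lower on the ketogenic diet, where the 10th percentile was also lower (0, against 0.895 on chow) and the 90th higher.

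Cells with at least 5 UMIs of C1qa, C1qb and C1qc, complement genes of tissue macrophages, made up 32% of cluster 3 on chow (275 cells) and 18.6% on the ketogenic diet (27 cells). In them Apoe stood at 3839 and 7160 CPM, a ratio of 1.87 [1.76–1.98]. In the other 584 and 118 cells it stood at 2645 and 3978 CPM, a ratio of 1.5 [1.44–1.57]. Apoe was thus higher in both parts, and a cut that moves 58 chow and 12 ketogenic cells with 3 to 7 C1q UMIs decides which part they join. When cells of any cluster with at least 3 UMIs of the macrophage markers were taken, the log2 ratio was −0.71 in place of 0.61. That set held 1616 chow cells, 840 of them from cluster 3, and 583 ketogenic cells, of which only 138 came from cluster 3. In cluster 3 the 10 macrophage markers summed to 3875 and 3876 CPM, the 6 monocyte markers to 3344 and 5718 CPM. The part of the monocyte transcripts in the Apoe ratio was not tested. Of the 6 neutrophil markers the sum stood at 306 and 59.3 CPM there, with Retnlg at 0 on the ketogenic diet. The 6 endothelial markers stood at 57.7 and 148 CPM, most of it Fabp4. The 6 adipocyte markers stood at 375 and 391 CPM, nearly all of it Lpl (1895 of 1904 and 349 of 349 UMIs), with Plin1, Lep and Cidec at 0 in both. The 6 stromal markers had 9 UMIs on chow and the 6 mesothelial ones 2, and none on the ketogenic diet. The part of these transcripts in the Apoe ratio was not tested either.

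Outside cluster 3, Apoe was lower on the ketogenic diet in 10 of the 12 other clusters, and at least 2-fold lower in 7, all of them lymphoid or mature DC-like. In the lymphoid clusters 0, 1, 2, 4, 7 and 11 together it stood at 84.6 CPM [77.6–92.2] on chow and 24.8 CPM [22.4–27.5] on the ketogenic diet, 3.41-fold lower. Macrophage transcripts moved with it in the same cells: Lyz2 stood at 746 and 118 CPM, Retnla at 678 and 83.3 CPM and C1qa at 10.7 and 1.76 CPM. Apoe per Lyz2 UMI lay between 0.113 and 0.141 in clusters 0, 1, 2, 4 and 11 on chow, near the 0.159 of cluster 3. Under the ketogenic diet it lay between 0.179 and 0.268 in these clusters, around the 0.218 of cluster 3. Cluster 7 was below both, at 0.0473 and 0.106. In a drop-based assay, free RNA from other cells adds UMIs of this kind to cells that do not express a gene. With 10% of each cluster's UMIs subtracted in proportion to the library's summed profile, Apoe was below 0 in 4 of 13 clusters and above 0 in 9, with 3 and 6 of them past 2-fold. These counts include clusters in which the subtraction took all Apoe UMIs of a library. On chow, clusters 0, 6, 7, 10 and 12 stood at 73.6, 77.1, 62.2, 79.1 and 71.9 CPM. Each is below 10% of the library's 802 CPM, so no chow UMIs were left there. Their log2 values of 4.12, 6.91, 2.11, 7.45 and 2.79 rest on the 0.5 added and measure no fold. Clusters 4 and 11 likewise kept no ketogenic UMIs. Cluster 5 turned from −0.87 to 0.43, and cluster 1 went from −1.64 to −0.82. No difference in expression by the lymphoid cells is read from these values.

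**Figure D2:**
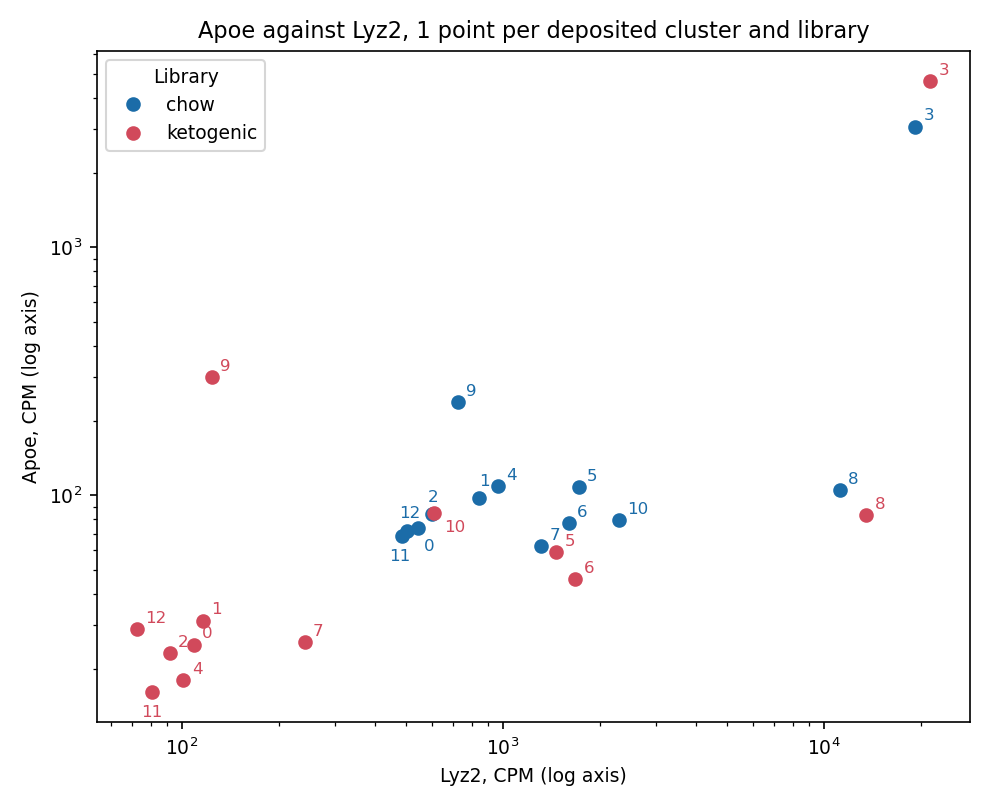
Apoe against Lyz2 in CPM, both axes logarithmic, with 1 point per cluster and library and the cluster number beside it. The lymphoid clusters lie low on both axes and lower on the ketogenic diet, cluster 8 is high in Lyz2 (11178 and 13540 CPM) but not in Apoe (105 and 83.4 CPM), and cluster 9 lies above the others of its library at a like Lyz2 level.

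The B and plasma-like cluster 9 stood apart from this relation. Its Apoe was 238 CPM [203–277] on chow and 299 CPM [274–326] on the ketogenic diet, a log2 ratio of 0.33 that became −0.18 relative to the median gene of that cluster, with 0.329 and 2.41 Apoe UMIs per Lyz2 UMI. After these values were seen, its cells were divided by whether B cell genes (Cd79b, Ms4a1, Pax5) or plasma cell genes (Jchain, Mzb1, Derl3, Sdc1) had more UMIs. The 175 ketogenic cells of the B part held 475 Apoe UMIs, 630 CPM [575–689], with 55 Lyz2 and 2 C1q UMIs. Of these cells 79 had Apoe and 29 had 5 UMIs or more, so the signal was spread over many cells. In the B part of the chow library, 38 cells held 101 Apoe UMIs (710 CPM), but 70 of them were in 1 cell. Without the richest cell of each library the levels were 232 CPM [158–329] and 580 CPM [527–638], a ratio of 2.5 [1.74–3.73], against 0.887 [0.714–1.11] with it. The plasma part was low, at 95.6 and 39.7 CPM. In the cycling cluster 10, likewise, 106 of 135 ketogenic Apoe UMIs were in 1 cell, and the log2 ratio of 0.10 became −2.0 without the richest cell of each library.

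Pltp (ENSMUSG00000017754, chromosome 2 from 164839518 to 164857711, minus strand) was highest in cluster 8, not in the macrophage-like cluster. Under chow it stood at 660 CPM [631–690] in cluster 8, 306 CPM [291–321] in cluster 3 and 251 CPM [230–273] in the cDC2-like cluster 5, each apart from the next. Under the ketogenic diet it stood at 794 CPM [688–912] in cluster 8, 137 CPM [123–151] in cluster 5 and 134 CPM [111–161] in cluster 3, the last 2 within counting error. The remaining clusters lay at 87.8 CPM or less. Cluster 8 held 44.1% of the Pltp UMIs of the chow library, and cluster 5 held 45.8% of those of the ketogenic library.

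Pltp was 2.27-fold lower in cluster 3 on the ketogenic diet (1552 and 120 UMIs, log2 ratio −1.18), where 5.4% of measured genes were at least 2-fold lower. In cells of cluster 3 with many C1q UMIs it stood at 427 and 217 CPM, and in the others at 240 and 112 CPM, lower in both. In cluster 5 it was 1.83-fold lower (553 and 378 UMIs). With free RNA subtracted the log2 ratio was −1.11 in cluster 3, −0.79 in cluster 5 and 1.03 in cluster 9 in place of −0.62. In clusters 0 and 6 the subtraction left no Pltp UMIs in either library, so the values there, −0.87 and −0.51, measure no ratio. Cluster 8 went the other way, 1.2-fold [1.03–1.39] higher from 1922 UMIs in 362 chow cells and 200 UMIs in 47 ketogenic cells. In the 6 lymphoid clusters together Pltp stood at 24 CPM on chow and 3.38 CPM on the ketogenic diet, next to the lower Lyz2 and Retnla given above, whose part in this result was not tested. Pltp and Apoe, both known LXR targets, thus had opposite signs within cluster 3.

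Abcg1 (ENSMUSG00000024030, chromosome 17 from 31057675 to 31117988, plus strand) exports cholesterol to lipoprotein particles. Its level was highest in the mature DC-like cluster 12, at 66.8 CPM [43.6–97.8] on chow and 80.9 CPM [53.8–117] on the ketogenic diet. The other clusters lay between 4.25 and 22.5 CPM on chow and between 17 and 44.2 CPM on the ketogenic diet, in a graded order in which neighbours were within counting error.

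Under the ketogenic diet Abcg1 was higher in each of the 12 clusters with at least 20 UMIs, and the interval of the ratio lay above 1 in 9 of them. It passed 2-fold in clusters 1, 3, 5, 6, 7 and 9. The NK-like cluster gave 28 chow and 159 ketogenic UMIs, 15.6 and 44.2 CPM, a ratio of 2.84 [1.89–4.41]. In the cDC1-like cluster the ratio was 3.22 [1.97–5.52], from 20 and 92 UMIs. The cDC2-like cluster gave 2.6 [1.67–4.17], from 27 and 88 UMIs. In the Treg-like cluster it was 2.76 [1.18–7.9], from 6 and 47 UMIs. The macrophage-like cluster gave 17.5 CPM [14.1–21.6] and 43.7 CPM [31.1–59.7], a ratio of 2.49 [1.66–3.67]. Cluster 9 gave 4.96 [1.57–25.1] from only 3 chow UMIs, and its median gene was itself 0.50 higher on the log2 scale. The median gene of each other cluster moved by between −0.04 and 0.09. Relative to the median gene, Abcg1 in these 12 clusters lay between 0.23 and 1.60 higher.

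The UMIs of Abcg1 were not held by a few cells. The richest cell of cluster 1 had 2 UMIs on chow and 4 on the ketogenic diet. Without the richest cells, Abcg1 was still above 0 in 12 of 12 clusters. In the 6 lymphoid clusters together it stood at 13.6 CPM [10.9–16.8] on chow and 29.7 CPM [27–32.6] on the ketogenic diet, while Lyz2 was 6.34-fold lower. With 10% of UMIs subtracted as free RNA, Abcg1 was above 0 in 12 of 12 clusters. Its lymphoid level was 77.7% of that of cluster 3 on chow and 68% on the ketogenic diet, so this subtraction could hardly change its sign. The part of free RNA in the Abcg1 ratios was not tested. After thinning to 1000 UMIs, 1.66% of chow and 4.14% of ketogenic NK-like cells had an Abcg1 UMI, with median depths of 2296.5 and 3147 UMIs before thinning. In cluster 3 the shares were 1.98% [1.16–3.15] and 4.83% [1.96–9.69], which overlap. In C1q-rich cells of cluster 3 the level was 20.8 and 87.8 CPM, and in the others 15.8 and 31.4 CPM. With cells chosen by macrophage markers in place of cluster 3, the log2 ratio was 0.87 and no longer past 2-fold.

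**Figure D3:**
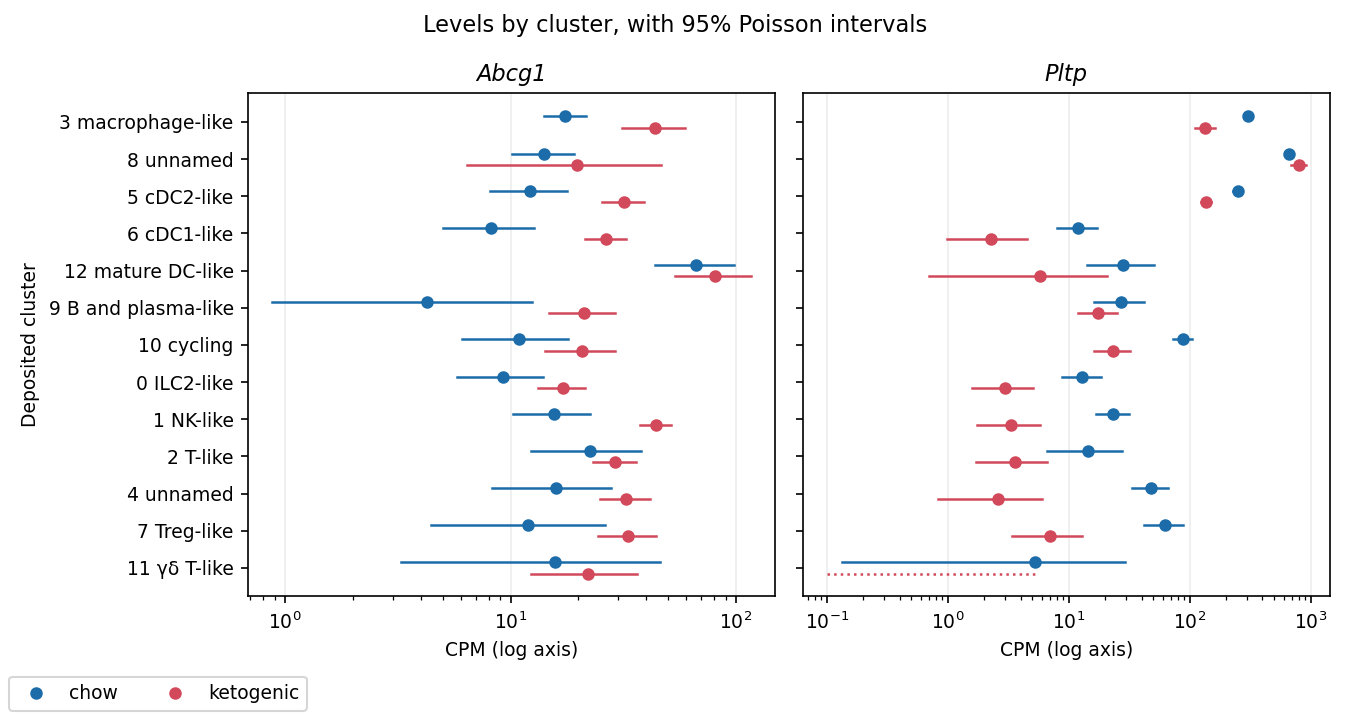
Levels of Abcg1 (left) and Pltp (right) in CPM on log axes by cluster, in the chow (blue) and the ketogenic library (red), with 95% Poisson intervals; a dotted line marks a count of 0. The red points of Abcg1 lie to the right of the blue ones in all 13 clusters, while those of Pltp lie to the left except in cluster 8 (660 and 794 CPM).

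Abca1 (ENSMUSG00000015243, chromosome 4 from 53030787 to 53159895, minus strand), which loads cholesterol onto lipid-poor apolipoproteins, was sparse, with 66 chow and 121 ketogenic UMIs in all. It reached 20 UMIs in 4 clusters and was higher on the ketogenic diet in each. The macrophage-like cluster had 34 and 12 UMIs, 6.69 and 13.4 CPM, a ratio of 2.01 [0.946–3.97], and a log2 ratio of 0.75 in place of 1.04 without the richest cell of each library, no longer past 2-fold. The cDC2-like cluster had 5 and 17 UMIs, a ratio of 2.71 [0.961–9.41]. The NK-like cluster had 6 and 24 UMIs and cluster 9 had 5 and 21, ratios of 2 [0.797–5.98] and 1.69 [0.619–5.73]. Each of these intervals spans 1, so the difference was not detectable at this depth in any single cluster, though it was over all cells. When each cell's own CPM was averaged, Abca1 was above 0 in 3 of the 4. In C1q-rich cells of cluster 3 it stood at 10.1 and 36.2 CPM from 18 and 7 UMIs.

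Srebf2 (ENSMUSG00000022463, chromosome 15 from 82147181 to 82205379, plus strand) was the most even of the 7 across cell types. It ranged from 17 CPM in cluster 9 to 97.2 CPM in the cycling cluster on chow, and from 22.7 to 70.6 CPM on the ketogenic diet. Its log2 ratio was within 0.3 of 0 in 10 of 13 clusters and exceeded counting error in the cycling cluster alone, at 97.2 CPM [81.4–115] and 44.5 CPM [34.8–56.2], 2.18-fold lower. In cluster 3 it stood at 54.7 and 50.4 CPM, a ratio of 0.921 [0.656–1.26].

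Insig1 (ENSMUSG00000045294, chromosome 5 from 28071363 to 28078662, plus strand), the retention factor of SREBP2, was highest in myeloid clusters. Under chow it stood at 169 CPM [158–181] in cluster 3, 137 CPM [122–154] in cluster 5 and 123 CPM [111–136] in cluster 8. Under the ketogenic diet it stood at 130 CPM [107–156], 59.7 CPM [50.9–69.6] and 111 CPM [73.9–161]. It was lower in 12 of 13 clusters, with the interval of the ratio below 1 in 6, and at least 2-fold lower in clusters 5 and 12. The cDC2-like cluster gave a ratio of 0.435 [0.357–0.527] and the mature DC-like cluster 0.43 [0.208–0.837], the latter from 34 and 13 UMIs, 10 of the 34 in 1 cell. As a mean over cells the log2 ratio of the mature DC-like cluster was −0.66 in place of −1.18, no longer past 2-fold. Averaged over each cell's own CPM, Insig1 was below 0 in 9 of 13 clusters. The cDC1-like cluster stood at 60.3 and 54.3 CPM, a ratio of 0.901 [0.722–1.12].

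Sqle (ENSMUSG00000022351, chromosome 15 from 59315077 to 59331192, plus strand), the enzyme that makes squalene epoxide, went in different directions. In the cDC2-like cluster it stood at 31.7 CPM [24.7–40.1] on chow and 12.3 CPM [8.52–17.2] on the ketogenic diet, 2.58-fold lower. In the NK-like cluster it was 3.71-fold lower, from 13 and 7 UMIs. In cluster 8 it was 2.45-fold [1.27–4.41] higher, from 66 and 14 UMIs, 4 of the 14 in 1 cell. The log2 ratio of 1.33 became 0.99 without the richest cell of each library and 0.97 as a mean over cells, both under 2-fold. In that cluster 4.65% of 7418 measured genes were at least 2-fold higher and 10.4% at least 2-fold lower. In cluster 3 the ratio was 0.987 [0.618–1.52], from 144 and 25 UMIs. In the ILC2-like cluster it was 1.09 [0.687–1.77].

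The cDC2-like cluster 5 held 344 chow and 358 ketogenic cells, with median depths of 6352.5 and 7722.5 UMIs. Abca1 and Abcg1 were past 2-fold higher there and Sqle and Insig1 past 2-fold lower, where 4.24% and 2.29% of 8594 measured genes were higher and lower by that much. Apoe stood at 108 and 59 CPM and Pltp at 251 and 137 CPM, both 1.83-fold lower, and Srebf2 itself at 73 and 63.3 CPM, a ratio of 0.868 [0.696–1.08]. The richest cells held 76 chow and 48 ketogenic Apoe UMIs, 31.9% and 29.4% of the cluster's Apoe. Retnla stood there at 964 and 212 CPM and Lyz2 at 1723 and 1465 CPM, and with free RNA subtracted the Apoe log2 ratio was 0.43 in place of −0.87. The log2 ratios of the other members there moved by little under the alternatives, with Abcg1 between 1.34 and 1.45, Insig1 between −1.23 and −1.12 and Sqle between −1.50 and −1.34.

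Of 21 synthesis enzymes, 19 reached 20 UMIs in cluster 5, and 17 of these were lower on the ketogenic diet, with a median log2 ratio of −0.48 against 0.04 for all measured genes. Among those past 2-fold were Hmgcs1, Fdps, Sqle and Cyp51. Hmgcs1, which makes the precursor of mevalonate, stood at 62.1 and 27.1 CPM, a ratio of 0.437 [0.325–0.583]. Fdps, which makes farnesyl pyrophosphate, stood at 112 and 55.4 CPM. Cyp51, the lanosterol demethylase, stood at 69.8 and 32.2 CPM. Idi1, the isomerase of the mevalonate branch, stood at 61.7 and 32.9 CPM, a ratio of 0.534 [0.405–0.702]. Lbr and Ebp had ratios of 0.902 and 0.885 whose intervals spanned 1, and Dhcr7 and Nsdhl were the 2 above 0. The summed level of the 21 enzymes was 743 CPM on chow and 460 CPM on the ketogenic diet, a ratio of 0.619 [0.575–0.667]. In the other 12 clusters this ratio lay between 0.795 and 1.53. The highest was that of cluster 9, whose median gene was itself 0.50 higher on the log2 scale. The mature DC-like cluster, at 0.795 [0.664–0.95], was the lowest of these 12, with 8 of 9 measured enzymes below 0. The cDC1-like cluster stood at 1.12 [1.03–1.22], with 13 of 18 above 0.

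**Figure D4:**
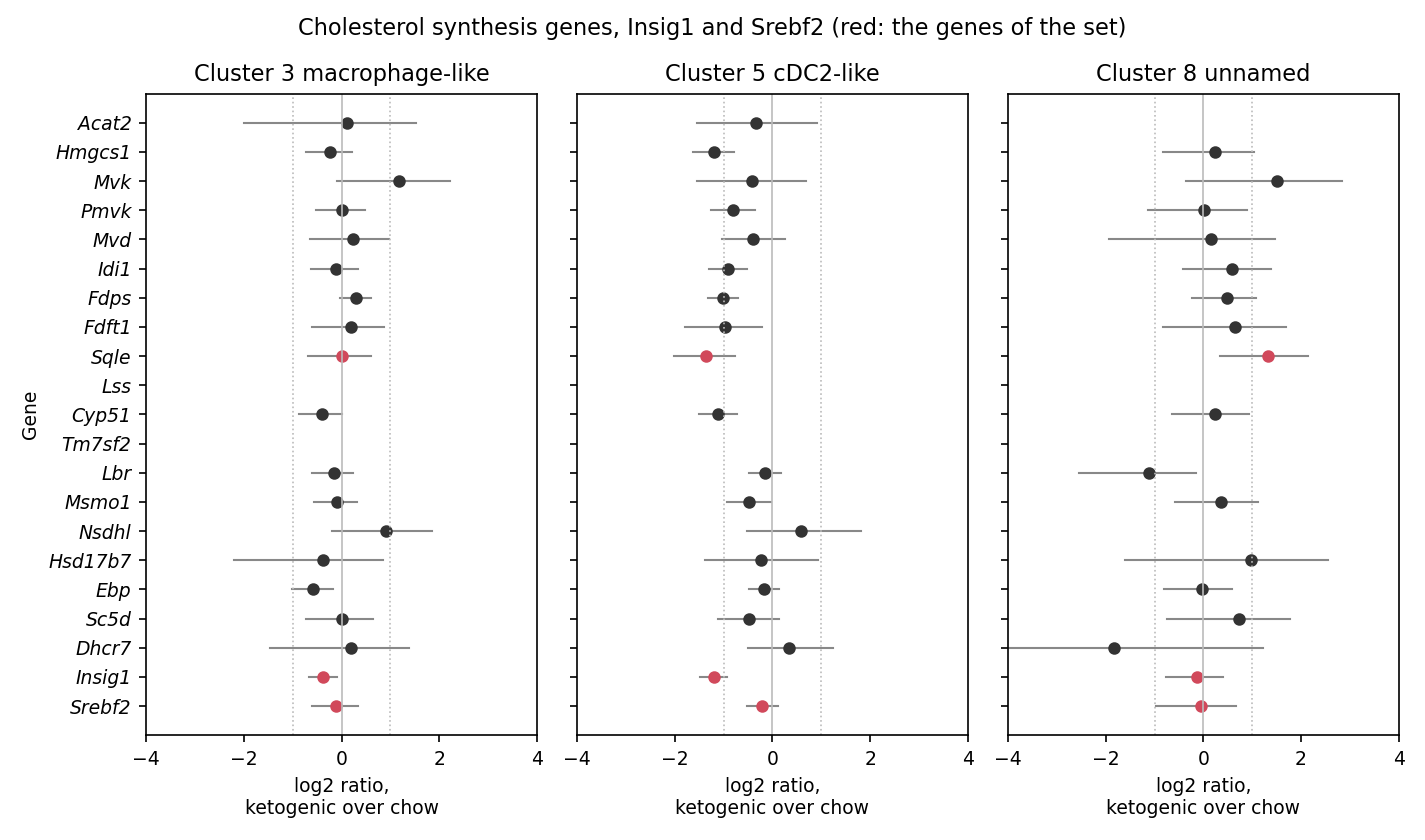
Log2 ratio, ketogenic over chow, of 19 of the synthesis enzymes and of Insig1 and Srebf2 (rows) in clusters 3, 5 and 8, with 95% intervals of the ratio (lines, ending at ±4); members are red, genes under 20 UMIs are left blank and dotted lines mark 2-fold. In cluster 5, 15 of the 17 enzymes drawn lie left of 0 together with Insig1, in cluster 3 the 17 lie on both sides, and Sqle lies on opposite sides in clusters 5 and 8.

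Mylip, a known LXR target, was higher in cluster 5, at 7.71 and 16.3 CPM, a ratio of 2.11 [1.19–3.94]. Of the 9 regulators of the SREBP pathway, 7 were below 0 there, with Insig1 past 2-fold and a median of −0.21. Of the 8 measured genes of the LXR and efflux list, 4 were above 0 and 4 below, and Abca1, Abcg1 and Mylip passed 2-fold. Cd36, a scavenger and fatty acid receptor, was lower (34 and 9 UMIs) and Cyp7b1, which clears oxysterols, was higher (11 and 29 UMIs).

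In the macrophage-like cluster the synthesis enzymes lay on both sides of 0, 10 above 0 and 9 below with a median of 0.01 against 0.06 for all genes, and Mvk alone passed 2-fold, from 26 and 10 UMIs. The summed level was 742 and 685 CPM, a ratio of 0.924 [0.847–1.01]. The LXR and efflux list was above 0 in 8 of 10 measured genes, with a median of 0.75. Abca1, Abcg1 and Mylip (8.86 and 22.4 CPM) passed 2-fold upwards and Pltp downwards. Nr1h3, which encodes LXR alpha, stood at 8.66 and 15.7 CPM, a ratio of 1.81 [0.916–3.36], and Apoc1, a neighbour of Apoe on the chromosome, at 10.4 and 19 CPM. The 7 of 9 SREBP regulators below 0 included Stard4, a sterol carrier, at 35.6 and 17.9 CPM. All 6 genes of lysosomal release and esterification stayed within 2-fold, with Npc2, which hands cholesterol on in the lysosome, at 904 and 1141 CPM.

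Among the uptake receptors of cluster 3, Cd36 was 3.53-fold lower (229 and 64.9 CPM) and Msr1, the scavenger receptor A, 2.76-fold [2.32–3.28] higher (80.7 and 223 CPM). Cyp27a1, which makes an oxysterol, was 2.49-fold [1.54–3.94] higher, at 12.6 and 31.4 CPM. Of the macrophage transcripts followed as free RNA, Retnla stood at 3083 and 207 CPM in cluster 3, and Fcrls at 40.4 and 8.96 CPM. These differences accompany those of the members, and whether cluster 3 holds the same kinds of macrophages in both libraries was not tested.

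In cluster 8, with 47 ketogenic cells, 13 of 17 measured synthesis enzymes were above 0, with a median of 0.37 against −0.04 for all genes. Sqle and Mvk passed 2-fold upwards, Sqle not without the richest cells or as a mean over cells, and Lbr and Dhcr7 downwards. The summed level was 629 and 699 CPM, a ratio of 1.11 [0.947–1.3]. Abcg1 stood at 14.1 and 19.8 CPM from 41 and 5 UMIs, a ratio of 1.41 [0.435–3.56].

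The profiles of the members over the 26 combinations of cluster and library, on log2 of CPM plus 20, resembled different genes. The 3 genes most like Apoe were Chil3, Mgst1 and Tlr7, with Pearson's r of 0.93, 0.93 and 0.92. Pltp was most like Pilrb2, Ear2 and Mrc1 (0.96, 0.95 and 0.95). Abcg1 was most like Gyg, Rnf115 and Nrbp1 (0.86, 0.86 and 0.85) and Abca1 like Slc37a2, A930007I19Rik and Abi3 (0.80, 0.79 and 0.78). For Sqle they were Fdps, Bag3 and Slc25a37 (0.81, 0.81 and 0.79), for Insig1 Ywhag, Slc29a3 and Sgpl1 (0.91, 0.90 and 0.90) and for Srebf2 Tiam1, Nfix and Sod1 (0.90, 0.82 and 0.81). The 26 points come from 2 libraries and share their depth and free RNA, so these values describe likeness only. Fdps, an enzyme of the same pathway, was the only one of the 21 on a fixed pathway list.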

How the data were processed

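Single-cell libraries of adipose tissue-resident CD45+ cells were prepared with a 10x Genomics protocol, per the labels' protocols, 1 for each diet. The values deposited are whole-number UMI counts for every gene in every cell; the file headers declare integers, and no normalisation by the authors is seen in them. Per the submitters' processing notes Cell Ranger, Seurat and mm10 were used; versions and filters are not given in the sources used here. Per the file headers, the authors' deposited table gives each cell 1 of 13 clusters (resolution 0.5); its t-SNE coordinates, of unit other, were not used.

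UMIs were summed per cluster and library in Python 3.11.15 (numpy 2.4.6, scipy 1.17.1, pandas 2.3.3). Log2 ratios had 0.5 added to each count. A call needed at least 20 UMIs and a 2-fold ratio. The all-cell level gives each cluster the mean of its 2 shares of cells as weight. Its interval is a normal approximation of counting error. Other intervals are exact, at 95%. No test was made, since there is 1 library per diet. The members, gene lists and alternatives were chosen with earlier results of these data known. Named genes are the members, list genes with at least 100 UMIs and 2-fold in cluster 3, and the 3 most alike genes of each member; others were named after their values were seen. A cluster got an "X-like" name from at least 3 raised markers, 1 of them among its 10 leading genes, except cluster 4, which met this for CD8 T cells but is led by NK cell receptor genes. T-like and B and plasma-like are joint names. Doublets were not removed. Thinning to 1000 UMIs used the exact hypergeometric expectation. The ratio and thinning code was tested on simulated data. Promoter windows are RefSeq's (GRCm38.p6) and gene positions are from GENCODE M21. Some list genes and marker genes are not reported by name here, though the list counts include them.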

Additional observations from a re-analysis of the deposited data

Results flagged for a closer look

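The log2 ratio of Apoe, ketogenic over chow, had opposite signs in different clusters, and the difference between clusters was not tested. It was 0.61 in the macrophage-like cluster 3 and 0.33 in the B and plasma-like cluster 9, the latter −0.18 relative to the median gene of that cluster, 0.81 with free RNA subtracted and 0.97 without the richest cell of each library. With all cells, the B part of cluster 9 alone stood at −0.18 and the plasma part at −1.26. The B part made up 38 of the 82 chow and 175 of the 245 ketogenic cells of that cluster. The Apoe ratio was −1.55, −1.64, −1.87, −2.58, −1.29 and −2.08 in the lymphoid clusters 0, 1, 2, 4, 7 and 11, and −0.87, −0.75 and −1.27 in the dendritic clusters 5, 6 and 12. With free RNA subtracted, cluster 5 turned to 0.43. Clusters 0, 6, 7 and 12 then had no chow Apoe UMIs left, so their values of 4.12, 6.91, 2.11 and 2.79 rest on the 0.5 added and measure no fold. Macrophage transcripts were lower in the same lymphoid clusters, with Lyz2 at 746 CPM on chow and 118 CPM on the ketogenic diet, and their part in the result was not tested.

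Pltp was higher in cluster 8, at 0.27, and lower in the 8 others that had at least 20 UMIs over both libraries and a ratio beyond counting error. These log2 ratios were −1.18 in cluster 3, −0.87 in cluster 5, −2.31 in cluster 6 and −1.91 in cluster 10, and −2.10, −2.76, −4.10 and −3.09 in clusters 0, 1, 4 and 7. With free RNA subtracted, cluster 9 stood at 1.03 in place of −0.62. Clusters 0 and 6 then had no Pltp UMIs left in either library, so their −0.87 and −0.51 measure no ratio. The difference between clusters was not tested.

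Sqle was higher in cluster 8, at 1.33, and lower in the NK-like cluster 1, at −1.85, and the cDC2-like cluster 5, at −1.36. This difference was not tested either, and cluster 1 rests on 13 and 7 UMIs. Cluster 8 was 0.99 without the richest cells and 0.97 as a mean over cells, both under 2-fold.

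The 87 chow and 55 ketogenic cells to which the authors gave no cluster enter none of the comparisons above. They held UMIs above the limit of 3 that a count of 0 allows. Apoe had 54 and 15 UMIs in them, Pltp 24 and 11, Insig1 31 and 9, Srebf2 12 and 6 and Abcg1 6 and 7, while Sqle had 9 on chow.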

How the results depend on the processing

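Of the alternatives, 72 of 77 in the macrophage-like cluster, 59 of 70 over all cells and 55 of 56 in cluster 5 moved a member by less than its counting error. In these no 2-fold call changed sign. With free RNA subtracted, Apoe went from at least 2-fold lower to 4.12, 2.11 and 2.79 in clusters 0, 7 and 12, and from −0.75 to 6.91 in cluster 6. The subtraction left no chow Apoe UMIs in any of these, so the values rest on the 0.5 added and measure no fold. In cluster 3, cells chosen by macrophage markers gave −0.71 for Apoe, −1.62 for Pltp and −0.95 for Insig1, and C1q-rich cells gave 0.90 for Apoe and 2.10 for Abcg1 (all log2). Over all cells Apoe was 0.33 relative to the median gene, 0.64 with free RNA subtracted, 0.45 as a mean over cells, −1.90 without weights and −1.12 without clusters 3 and 8. Pltp was −0.46 with free RNA subtracted, −2.68 without weights and −1.49 without these clusters. Abca1 was under 2-fold at 0.96 relative to the median gene, 0.96 without the richest cell, 0.83 as a mean over cells and 0.59 without weights. Without weights Sqle was −0.77, Insig1 −1.20 and Srebf2 −0.34. The pairings past 2-fold higher were 9, 6 with a minimum of 50 UMIs, 4 with 100, 18 at 1.5-fold and 18 with free RNA subtracted. Those lower were 19, 11 with a minimum of 50, 9 with 100, 27 at 1.5-fold and 13 with free RNA subtracted. The 18 higher with free RNA subtracted include Apoe in clusters 0, 6, 7, 10 and 12, where no chow UMIs were left. No turn of the balance is read from that setting. The other 7 settings gave 8 to 11 higher and 18 to 21 lower. Of the 28, 9 ended or changed sign in at least 1 setting: Apoe in clusters 0, 1, 7 and 12 and Pltp in 0 and 6 with free RNA subtracted, Abca1 in 3 (0.75) and Sqle in 8 (0.99) without the richest cell, and Sqle in 8 (0.97) and Insig1 in 12 (−0.66) as means over cells. At 100 UMIs, 11 synthesis enzymes were left in cluster 5, all 11 below 0, and 1 gene of the LXR and efflux list passed 2-fold upwards in cluster 3 and 1 in cluster 5, since fewer genes are measured. Unthinned, 90.1% and 80.7% of cluster 3 cells had Apoe, 8.85% and 20% Abcg1, and 3.73% and 12.6% of NK-like cells Abcg1. Apoe in cluster 9 lay between −0.18, relative to the median gene, and 0.97, without the richest cells. The causes of the other moves were not tested. Abca1, with 187 UMIs, and cluster 8 under the ketogenic diet are limited by depth. No paired analysis was possible because each diet has 1 library.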
